A study of Danio rerio with 6 samples.

Results

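The genes described here are the 4 zebrafish parvalbumin genes pvalb1, pvalb2, pvalb3 and pvalb4, followed in caudal fins of swim-trained and untrained larvae. They are 4 of 15778 genes tested, of which 9246 carry a symbol. A probe belonged to them when its RefSeq accession, read without its version, carried 1 of these 4 symbols. That gave 10 of the 43603 probes on the array, with 2 probes each for pvalb1 and pvalb2 and 3 each for pvalb3 and pvalb4. The 4 genes were chosen by their log2 ratios of trained over control in these same samples, so their own ratios are given as a description with no test. Probes of a gene are numbered by brightness, and the brightest one stands for the gene unless another is named.

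Trained larvae were wildtype zebrafish made to swim daily from 5 to 10 days post fertilisation (dpf) in sessions of 3 h. Control larvae were wildtype zebrafish of the same age without training. The caudal fins of both groups were taken at 10 dpf, and each RNA pool combined the fins of 15 fish, so no value belongs to a single larva. The trained pools are T2 and T3 and the control pools are C2 and C3. On each 2-colour Agilent array a trained and a control pool of equal number met. Pool pair 2 (T2 with C2) filled 4 arrays, where the dyes were swapped and both orientations repeated. Pool pair 3 (T3 with C3) filled 2 arrays, 1 per orientation. Arrays of a pair share their RNA, so the replicate is the pool pair and n is 2. Since each sample is a piece of bulk tissue, fewer cells of a type and less RNA per cell cannot be told apart in any value below.

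Parvalbumins are small cytosolic proteins that bind calcium through EF-hand motifs. In fast muscle fibres they take up calcium after a contraction and so speed relaxation, and fish white muscle is known for large amounts of them. In other tissues of vertebrates, parvalbumins buffer calcium in some neurons and in sensory hair cells. Zebrafish carry several parvalbumin paralogs, and the array holds probes for 9 of them.

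The ratios of the 15778 genes spread more widely in pool pair 3 than in pool pair 2, with SDs over genes of 0.528 and 0.152 on the log2 scale of trained over control. Their medians were 0.05 in pair 3 and 0.02 in pair 2. In pair 2, ratios on arrays of opposite dye orientation correlated at 0.0831 to 0.158, against 0.86 and 0.776 for repeats of 1 orientation. In pair 3 the 2 orientations correlated at 0.889. Over all genes, pair 2 ratios thus reproduced poorly across the dye swap. Places within pair 2 and shares over all 6 arrays, given below, carry this limit. Between 54.3% and 81.1% of probes were well above background in a channel of an array. With limma and Benjamini-Hochberg adjustment over all genes, 0 genes passed 0.05 in either direction (0% higher, 0% lower). The lowest adjusted p was 0.752, and 631 of the 15778 genes had an unadjusted limma p under 0.05. An intensity trend with a robust prior called 7 genes, and 9 were called when the 6 arrays entered singly with pool pairs as random blocks. The labelled tissue was set against 25 epidermis and fin genes, of which 23 were on the array, and all 23 were well above background. Their summed intensity was 262990 in C2 and 240100 in C3. The 32 fast muscle genes described below reached 508930 and 386890 in these pools, so the samples also held muscle RNA. Of the 15778 genes, 27 were brighter than pvalb2 and 60 brighter than pvalb1, so both lie at the top of the intensity range. All 10 parvalbumin probes were well above background in both channels on all 6 arrays, and 0 of their spots were flagged or saturated.

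The paralogs differed in direction. The gene pvalb1 was higher in the trained pool of both pairs, pvalb3 and pvalb4 were lower in the trained pool of both pairs, and pvalb2 was higher in T2 than in C2 but lower in T3 than in C3. Each of these directions was shared by every probe of its gene at the level of the pool pair.

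The level of pvalb1, a muscle parvalbumin, was 16.21 in T2 and 16.53 in T3, against 15.38 in C2 and 15.10 in C3, in log2 normalised intensity. Both trained pools lay above both control pools, as they did for 3577 of all genes tested (22.7%). On the 4 arrays of pair 2, the log2 ratios of trained over control were 0.80, 0.87, 0.90 and 0.77, and on the 2 arrays of pair 3 they were 1.43 and 1.43. All 6 arrays were higher in trained, which held for 11.8% of genes. The pair values were 0.84 and 1.43, which are 1.78-fold and 2.69-fold higher in trained, and their mean was 1.13 ± 0.21 (moderated SE, n = 2 pool pairs). The size in pair 3 depended on the processing. It was 0.91 with median centring in place of loess and 1.70 with local backgrounds as deposited. This gene is 1 of 20 genes (0.127%) that were at least 1.5-fold higher in both pairs.

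The second pvalb1 probe gave the same direction with somewhat smaller ratios. Its levels were 15.77 and 15.57 in T2 and T3, against 15.02 and 14.34 in C2 and C3, again without overlap. Its pair values were 0.74 in pair 2 and 1.24 in pair 3. Technical repeats of this probe differed by at most 0.11, and the SD between its pairs was 0.35, which is another measure. The dye orientations lay farther apart than the repeats. In pair 2 the probe read 0.84 and 0.95 with trained in Cy5 but 0.59 and 0.59 with trained in Cy3. In pair 3 it read 1.35 and 1.13.

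For pvalb2, another muscle parvalbumin, the levels were 16.47 in T2 and 15.96 in T3, against 16.00 in C2 and 16.30 in C3. The trained and control pools overlapped, with T2 the highest pool and T3 the lowest. The ratios on the 4 arrays of pair 2 were 0.40, 0.46, 0.41 and 0.60, all higher in trained. On the 2 arrays of pair 3 they were -0.38 and -0.30, both lower in trained. The pair values were 0.47 and -0.34, that is 1.38-fold higher in T2 and 1.27-fold lower in T3, each relative to its control pool. Their mean of 0.06 ± 0.24 (moderated SE, n = 2) therefore describes neither pair, and it was -0.25 with median centring in place of loess. The second probe gave 0.45 and -0.25, so the turn in direction between the pairs was present in both probes. Being higher in pair 2 and lower in pair 3 was shared by 3149 genes (20.0%).

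**Figure D1:**
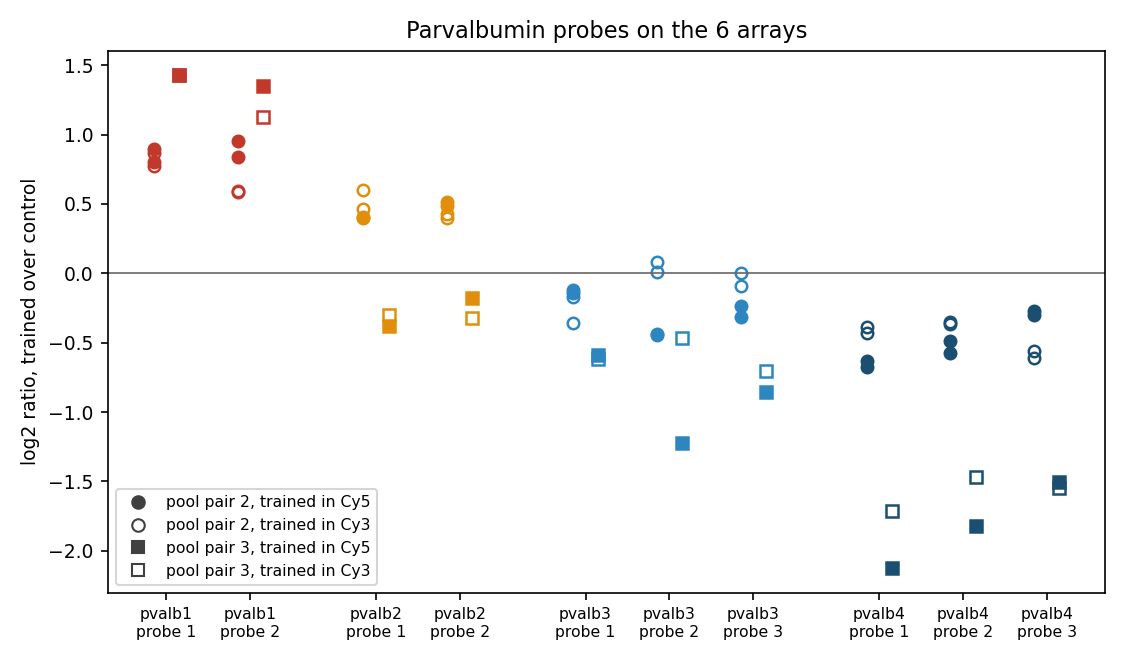
Log2 ratio of trained over control (vertical axis) of each of the 10 parvalbumin probes on the 6 arrays, by gene and probe. Circles are pool pair 2 and squares pool pair 3, filled where trained was in Cy5 and open where it was in Cy3; pvalb1 lies above 0 on all arrays, pvalb4 below 0 on all arrays, and pvalb2 above 0 in pair 2 and below 0 in pair 3.

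The dimmer signal of pvalb3 was lower in trained, by less than for pvalb4. Its levels were 9.04 in T2 and 8.42 in T3, against 9.23 in C2 and 9.03 in C3. T2 exceeded C3 by a narrow margin, so the groups overlapped, and T3 was the low pool. The array ratios were -0.12, -0.36, -0.14 and -0.17 in pair 2 and -0.59 and -0.62 in pair 3. All 6 were below 0, as for 8.37% of genes. The pair values of -0.20 and -0.60 correspond to 1.15-fold and 1.52-fold lower levels in trained, and their mean was -0.40 ± 0.19 (moderated SE, n = 2).

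The other pvalb3 probes gave pair values of -0.20 and -0.84 for the second and of -0.16 and -0.78 for the third. In both of them T2 and T3 lay below C2 and C3, as for 13.9% of genes by their brightest probes. The margin was narrow, with T2 at 8.76 and C3 at 8.83 for the second probe and 8.46 and 8.51 for the third. In pair 2, however, the second probe read -0.44 and -0.44 with trained in Cy5 but 0.01 and 0.08 with trained in Cy3. Its dye term, the part of the ratio that changes sign with the dyes, was -0.24 in pair 2 and -0.38 in pair 3, larger in size than its pair 2 ratio. The third probe read -0.32 and -0.24 with trained in Cy5 and -0.09 and 0.00 with trained in Cy3, with a dye term of -0.12 in pair 2. For pvalb3 the direction in pair 2 thus rests on small values that move with the dye in 2 of 3 probes.

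The lowest ratios of the 4 genes belonged to pvalb4. Its levels were 12.68 in T2 and 11.54 in T3, against 13.21 in C2 and 13.46 in C3. Both trained pools lay below both control pools, as for 2192 genes (13.9%), and T3 was far below the other 3 pools. The ratios were -0.63, -0.43, -0.68 and -0.39 on the arrays of pair 2, and -2.13 and -1.71 on those of pair 3. The pair values of -0.53 and -1.92 are 1.44-fold and 3.78-fold lower levels in trained.

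The mean for pvalb4 was -1.23 ± 0.35 (moderated SE, n = 2), with an SD between the pairs of 0.98. Pair 3 decided its size, since pair 2 alone gave -0.53. That pair 2 value stops short of a 1.5-fold change, which is 0.585 on the log2 scale, so pvalb4 is not among the 31 genes (0.196%) at least 1.5-fold lower in both pairs. The second probe gave -0.44 and -1.64 and the third gave -0.44 and -1.52, and neither overlapped between trained and control pools. Ordered by the mean ratio from the low end, pvalb4 stood at place 10 of 15778 genes, and pvalb3 at place 830. From the high end pvalb1 stood at place 56. Within pair 2 alone pvalb1 was at place 13 and pvalb2 at place 118 from the high end, and pvalb4 at place 72 from the low end. Within pair 3 alone pvalb1 was at place 328 from the high end, and pvalb4 at place 5 and pvalb2 at place 2741 from the low end.

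**Figure D2:**
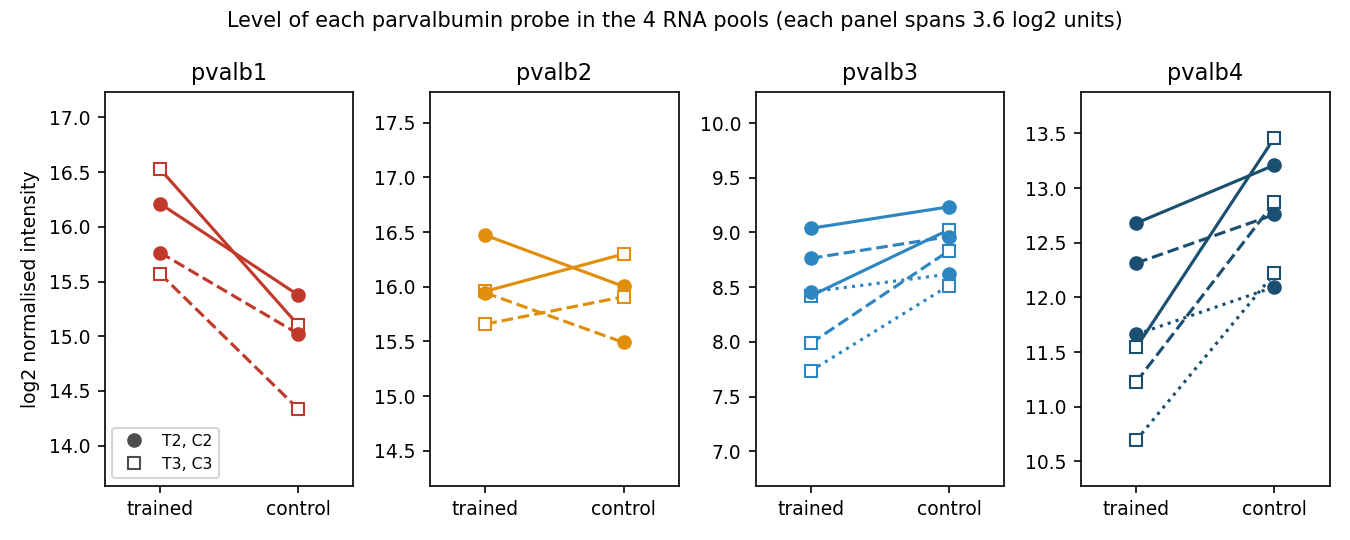
Level of each parvalbumin probe (log2 normalised intensity, vertical axis) in trained pools T2 and T3 and control pools C2 and C3, with a panel per gene and the same height in log2 units in each. Lines join the pools of a pair, solid for the brightest probe, dashed for the second and dotted for the third; filled circles are pair 2 and open squares pair 3, and the lowest pvalb4 levels are those of T3.

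The levels of single pools were also compared between the pairs. These levels come from different arrays, so a shift of a probe between arrays would move both pools of a pair. For pvalb4, T3 was 1.14 below T2, whereas C3 was 0.25 above C2, both in log2 units. For the brightest pvalb1 probe, T3 was 0.32 above T2 and C3 was 0.27 below C2. For pvalb2, T3 was 0.51 below T2 and C3 was 0.30 above C2. For pvalb3, T3 was 0.62 below T2 and C3 was 0.21 below C2. Over all genes the SD of such differences was 0.35 between the trained pools and 0.42 between the control pools. The second pvalb1 probe differed here, with T3 at 0.19 below T2 and C3 at 0.69 below C2, so for pvalb1 the levels do not settle which pool moved.

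The 4 genes were also set against each other within each array, as the difference of 2 of their ratios. Loess corrects by intensity, and the genes differ in brightness, so these differences still depend on the normalisation. The difference between pvalb1 and pvalb4 was 1.37 in pair 2 and 3.35 in pair 3. By the brightest probes, the abundance of pvalb1 relative to pvalb4 was thus 2.58-fold and 10.2-fold higher in trained than in control. These are upper values, since the brightest probe was the most extreme one of both genes in both pairs. With probes averaged, the mean difference was 2.14 in place of 2.36. Between pvalb1 and pvalb2 the difference was 0.37 in pair 2 and 1.77 in pair 3. Between pvalb1 and pvalb3 it was 1.03 and 2.03. The gene pvalb1 therefore had the highest ratio of the 4 in both pairs.

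The other 3 comparisons do not involve pvalb1. The difference between pvalb2 and pvalb4 was 0.998 in pair 2 and 1.58 in pair 3, and that between pvalb3 and pvalb4 was 0.33 and 1.31. Between pvalb2 and pvalb3 it was 0.66 and 0.26. All 6 differences were above 0 on all 6 arrays, so the order pvalb1, pvalb2, pvalb3, pvalb4 from high to low held on each array by the brightest probes after loess. Other probes broke it on single arrays of pair 2. With trained in Cy5, the second pvalb3 probe (-0.44 and -0.44) lay below the third pvalb4 probe (-0.30 and -0.27). On a repeat with trained in Cy3, the second pvalb1 probe (0.59) lay below the brightest pvalb2 probe (0.60). With median centring in its place, pvalb2 and pvalb3 came close in pair 3, at -0.86 and -0.88. The narrowest gap was 0.07, between pvalb3 and pvalb4 on an array of pair 2 with trained in Cy3. In pair 2 neighbours in this order lay between 0.33 and 0.66 apart, and in pair 3 between 0.26 and 1.77 apart.

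**Figure D3:**
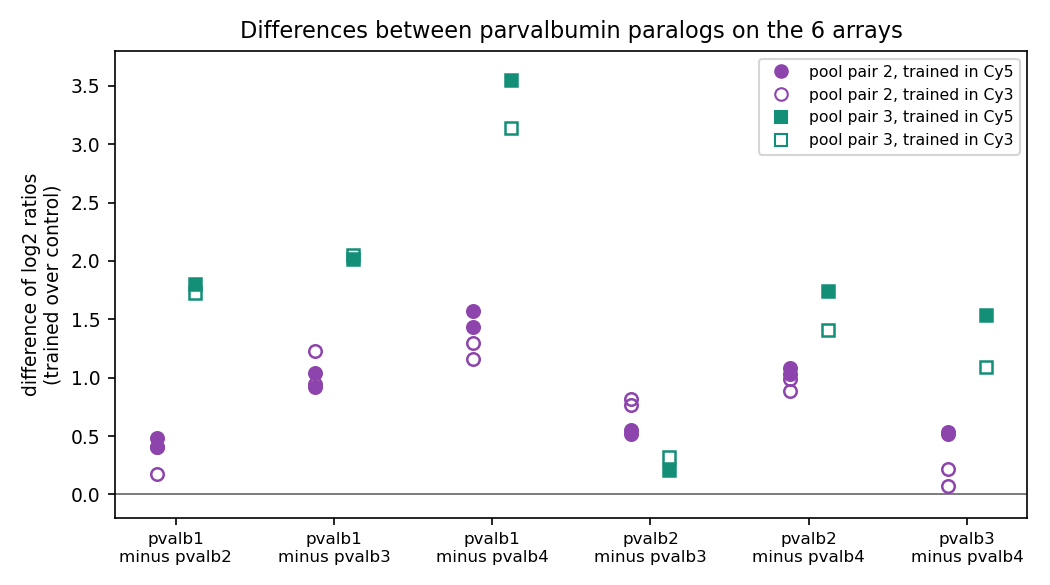
Difference between the log2 ratios (trained over control) of 2 parvalbumin genes on each of the 6 arrays, by gene pair. Circles are pool pair 2 and squares pool pair 3, filled with trained in Cy5; every difference lies above 0, and the one between pvalb1 and pvalb4 is 1.37 in pair 2 and 3.35 in pair 3.

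Averaged over both dye orientations, probes of 1 gene gave close values in pair 2 and wider ones in pair 3. In pair 2 the gap between the highest and the lowest probe of a gene was 0.09 for pvalb1, 0.01 for pvalb2, 0.04 for pvalb3 and 0.10 for pvalb4. In pair 3 these gaps were 0.19, 0.09, 0.24 and 0.39 in the same order of genes, so the pvalb4 probes lay farther apart there than the genes pvalb2 and pvalb3, which differed by 0.26. On single arrays the probes of a gene could lie farther apart. From brightest to dimmest, the pvalb3 probes read -0.36, 0.01 and -0.09 on an array of pair 2 with trained in Cy3. In pair 3 with trained in Cy5 they read -0.59, -1.22 and -0.86. Technical repeats of pair 2 differed by -0.10 to 0.19 over the 10 probes. The 2 slides, which coincide with the scan times, each held arrays of both pairs, and values within slide 1 and slide 2 were 1.13 and 1.13 for pvalb1, 0.02 and 0.10 for pvalb2, -0.41 and -0.39 for pvalb3 and -1.33 and -1.12 for pvalb4. In pair 3, slide and dye orientation coincide and cannot be told apart. Probe sequences were not used here, so how far a probe also binds the transcript of a close paralog was not tested.

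In the gene order of the RefSeq assembly GRCz12tu, genes with opposite ratios are neighbours. The genes pvalb8, pvalb4, pvalb1 and pvalb5 follow each other with 0 coding genes between them, so the paralogs with the highest and the lowest ratio stand side by side. The genes pvalb9, pvalb3 and pvalb2 form a second run, also with 0 coding genes between them. The gene pvalb6 lies on the chromosome of the first run, 757 coding genes away, and pvalb7 stands apart from both runs. The array was designed on an older assembly (danRer6), so this order is given for the genes and not for the probes.

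Of the 5 other parvalbumin genes on the array, 3 were tested. In zebrafish, pvalb7 is known as a marker of cerebellar Purkinje cells, and its brightest probe gave -0.48 in pair 2 and -0.52 in pair 3, with a mean of -0.50 ± 0.17 (moderated SE, n = 2). Its other probes read lower, at -0.60 and -1.65 and at -0.75 and -1.91, so the probes of pvalb7 differed by 1.39 in pair 3, more than those of any of the 4 genes above. The gene pvalb8, known from zebrafish hair cells, gave -0.34 and -0.20 with a mean of -0.27 ± 0.17, and its second probe gave -0.48 and -0.77. The pvalb8 mean depended on the dye, at -0.43 with trained in Cy5 only and -0.10 with trained in Cy3 only. Both pvalb7 and pvalb8 were bright, with 996 and 845 of the 15778 genes brighter. Which cells of the fin hold their transcripts was not tested. For pvalb6 the pair values were 0.09 and -0.12, with a mean of -0.02 ± 0.17. This gene was dim, with 12006 of the 15778 genes brighter, and its other probe was not well above background on every array of a channel. In pair 2 it read 0.38 on the repeat with trained in Cy3 and between -0.05 and 0.02 on the other arrays. No probe of pvalb5 or pvalb9 was well above background on every array of a channel, so neither was tested. Of the 7 parvalbumins tested, pvalb1 was the only one higher in trained in both pairs, where 36.6% of all genes were, and pvalb3, pvalb4, pvalb7 and pvalb8 were lower in both, where 24.7% of all genes were.

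Muscle parvalbumins work in fast muscle fibres, and 32 of a list of 42 fast muscle contractile and metabolic genes were tested. By limma with adjustment over all genes, 0 of the 32 passed the threshold. Among them 16 were higher in trained in both pairs (36.6% of all genes were) and 4 were lower in both (24.7% of all genes). The remaining 12 were higher in pair 2 and lower in pair 3 (20.0% of all genes). Their median ratio was 0.24 in pair 2, 0.00 in pair 3 and 0.09 for the mean, beside 0.02, 0.05 and 0.04 over all genes, and it was -0.12 for the mean with median centring. The summed intensity of the list was 625970 in T2 and 498390 in T3, against 508930 in C2 and 386890 in C3, a ratio of 1.23 in pair 2 and 1.29 in pair 3. Like pvalb1, this sum was higher in the trained pool of each pair. That was not particular to fast muscle. The sums of the epidermis and fin list and of the calmodulin and troponin C list, both described below, were also higher in both pairs. In pair 3 the ratio of the epidermis and fin sum exceeded that of the fast muscle sum. The calmodulin and troponin C list shares troponin C genes with the fast muscle list. T3 was below T2 for the fast muscle sum, as for the second pvalb1 probe, but above T2 for the brightest pvalb1 probe. The part of these sums in the parvalbumin ratios was not tested.

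Set against these genes, pvalb1 stood high and pvalb4 low. In pair 2, pvalb1 was above all 32 fast muscle genes, and in pair 3 it was above 31, with myhc4, a fast myosin heavy chain, higher at 1.63. The gene pvalb4 was above 1 fast muscle gene in pair 2, tnnc2.1, and below all 32 in pair 3. The gene pvalb2 had 5 fast muscle genes above it in pair 2 and 20 in pair 3. For pvalb3, 1 fast muscle gene was lower in pair 2 and 8 were lower in pair 3. Relative to the median of the list, pvalb1 was 0.60 and 1.42 higher in pairs 2 and 3, pvalb2 was 0.23 higher and then lower by a difference of -0.35, pvalb3 stood at -0.43 and -0.61, and pvalb4 at -0.77 and -1.92.

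The fast muscle genes themselves included members on both sides. At least 1.5-fold higher in both pairs were myom1a, an M-band component, with 0.60 and 1.06, and tnni2a.3, a fast troponin I, with 0.60 and 0.87. The fast myosin light chain genes mylz3 and mylpfa had means of 0.78 ± 0.20 and 0.53 ± 0.20 (moderated SE, n = 2). Lower in both pairs were tnnc2.1, a fast troponin C gene, with -0.64 and -1.40, and tnni2b.1, another fast troponin I, with -0.18 and -1.17. Also lower in both were pygma, the muscle glycogen phosphorylase, at -0.03 and -0.66, and pgam2, the muscle phosphoglycerate mutase, at -0.01 and -0.11. The 12 genes that were higher in pair 2 and lower in pair 3, as pvalb2 was, included the creatine kinase ckma (0.41 and -0.26), the tropomyosin tpma (0.28 and -0.76) and the myosin light chain myl1 (0.28 and -0.73).

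**Figure D4:**
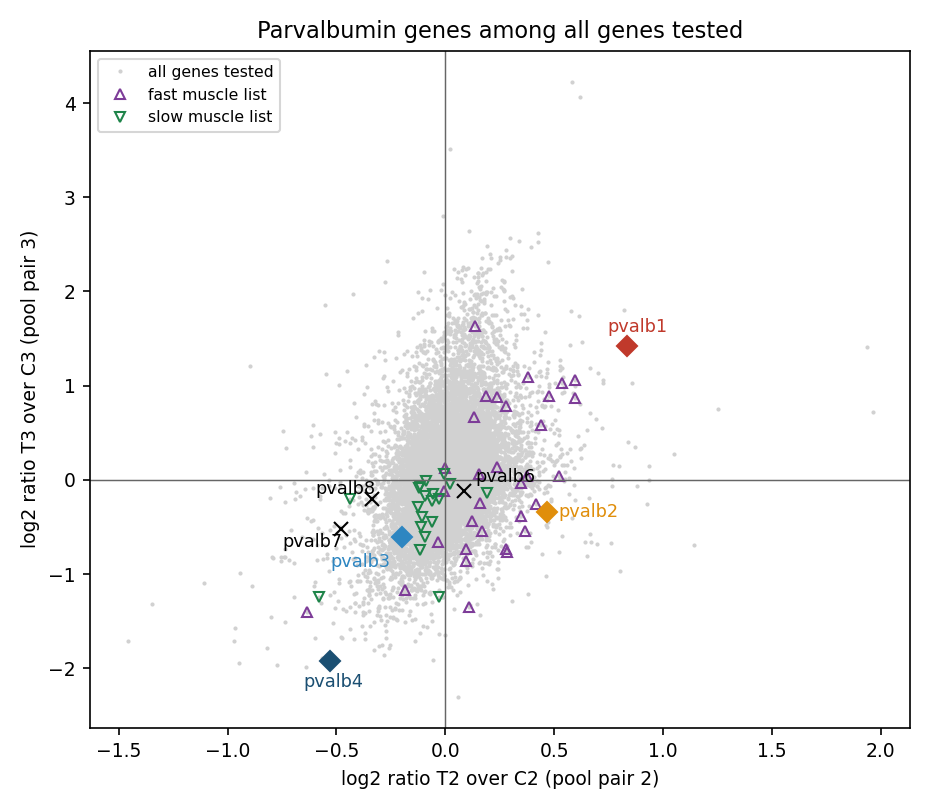
Log2 ratio of trained over control in pool pair 2 (horizontal axis) and pool pair 3 (vertical axis) of all genes tested (grey points), with pvalb1 to pvalb4 as diamonds and the other parvalbumins tested as crosses. Upward triangles are the 32 fast muscle genes and downward triangles the 19 slow muscle genes; pvalb1 lies at 0.84 and 1.43 in the upper right and pvalb4 at -0.53 and -1.92 in the lower left.

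Slow muscle genes were mostly lower in trained. Of 19 tested from a list of 25, 16 were lower in both pairs (24.7% of all genes were), 0 were higher in both (36.6% of all genes were), and 0 passed the adjusted threshold. The list median was -0.09 for pair 2, -0.20 for pair 3 and -0.15 for the mean, which was -0.36 with median centring. The slow myosin heavy chain smyhc2 had -0.58 and -1.24, with a mean of -0.91 ± 0.22, and the slow troponin T tnnt1 had -0.44 and -0.20. The myosin light chain myl13 had -0.03 and -1.25, and the troponin T tnnt2d had -0.12 and -0.75. The summed intensity of the list was 171450 in T2 and 104700 in T3, against 180560 in C2 and 138930 in C3. This level is lower in trained in both pairs, as pvalb3 and pvalb4 are, and its part in their ratios was not tested. The sums of the other parvalbumins (ratios of 0.76 and 0.79) and of the hair cell and lateral line list (0.89 and 0.60) were also lower in both.

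Parvalbumin works alongside the calcium release and uptake machinery of muscle, of which 28 of 39 listed genes were tested. Of these, 14 were higher in both pairs (36.6% of all genes were) and 5 were lower in both (24.7% of all genes). A further 7 were higher in pair 2 and lower in pair 3 (20.0% of all genes), and 0 passed the threshold. The list median was 0.13 in pair 2, 0.05 in pair 3 and 0.12 for the mean, and the mean gave 0.02 with median centring. The calcium pump atp2a1 (SERCA of fast muscle) had -0.01 in pair 2 and -0.87 in pair 3, with a mean of -0.44 ± 0.25. The calcium release channel ryr1b had 0.06 and 0.56, and the calcium-storing protein casq1a had 0.49 and -0.22, so these 3 central components did not share a direction. The smallest unadjusted p-values in the list belonged to mcu, the mitochondrial calcium uniporter (0.25 and 1.25), its regulator micu2 (0.22 and 1.03), the junctophilin jph1b (0.12 and 1.44) and the plasma membrane calcium pump atp2b1a (0.14 and 0.98). All 4 were higher in trained in both pairs, with most of the ratio in pair 3. By single arrays, mcu and micu2 were higher on all 6, jph1b on 5 and atp2b1a on 4.

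Calmodulin and troponin C, like parvalbumin, are EF-hand calcium binders, and 9 of 11 listed genes were tested. Among them 3 were higher in both pairs (36.6% of all genes were) and 5 were lower in both (24.7% of all genes). Pair 2 values as small as 0.005 (calm2a) and -0.007 (calm3b) entered these counts. The threshold was passed by 0 genes, and the list median was -0.14. Here too paralogs had opposite directions. The gene tnnc2.1 had -0.64 and -1.40 (mean -1.02 ± 0.24), and tnnc2.2 had 0.44 and 0.58 (mean 0.51 ± 0.17). The calmodulin genes calm1a and calm2a had means of 0.33 ± 0.17 and 0.34 ± 0.22.

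Markers of other cells that can hold parvalbumin were present to different degrees. Of 9 hair cell and lateral line markers on the array, 2 were tested and 7 were not well above background on every array of a channel. The 2 were s100t, at -0.20 and -1.02, and atoh1a, at 0.00 and 0.35, and their summed intensity was 680 in T2 and 601 in T3, against 761 in C2 and 996 in C3. Of 16 neural and glial markers on the array 14 were tested, with a median of -0.02 in pair 2, 0.20 in pair 3 and 0.11 for the mean, so its sign differed between the pairs. The list had a summed intensity of 7466 in T2 and 6456 in T3, against 7570 in C2 and 5406 in C3. The glutamate decarboxylase gene gad2, of inhibitory neurons, had 0.13 and 1.86. The glial filament gene gfap had -0.06 and -0.73, and the neuronal genes stmn2b and elavl4 had 0.03 and 0.40 and -0.09 and 0.57. The part of these cells in the parvalbumin ratios was not tested.

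The 23 epidermis and fin genes had a median of 0.08, which was -0.09 with median centring. Their summed intensity was 296810 in T2 and 335560 in T3, against 262990 in C2 and 240100 in C3. Keratin genes lay on both sides, with krt5 at 0.61 ± 0.20 and krt8 at -0.69 ± 0.23 (mean and moderated SE, n = 2). The epidermal gene evpla had a mean of 0.42 ± 0.17, and the epithelial cadherin cdh1 had 0.39 ± 0.17.

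The genes whose ratios lay closest to each parvalbumin over the 6 arrays were found by root mean square distance among 8727 genes with a symbol. This is a likeness over 6 arrays of 2 pool pairs and says nothing of shared control. The members themselves and genes with a clone or placeholder name (si:, zgc:, zmp:, im:, wu:, cabz or LOC) were left out of the 8727. Closest to pvalb2 were ckma (0.0874), the transporter gene slc16a12b (0.101), the Z-disc gene myoz1a (0.103), the muscle fructose bisphosphatase fbp2 (0.104) and the muscle ubiquitin ligase trim63b (0.117), of which ckma and myoz1a are on the fast muscle list. Closest to pvalb1 were the complement factor D gene cfd (0.223), ifi27.1 of an interferon-inducible family (0.266), myom1a (0.308), sc:d0202 (0.314) and icn, an S100-type calcium-binding protein (0.327). Their distances were larger than those of the pvalb2 neighbours, so none of the 8727 genes lay as near to pvalb1.

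The nearest genes to pvalb4 were the chaperonin subunit cct5 (0.154), the actin acte1 (0.191), the respiratory chain subunit ndufb9 (0.202), gch2 of pteridine pigment synthesis (0.204) and the seryl-tRNA synthetase sars1 (0.208). None of these is on the fast muscle list. Closest to pvalb3 were the ephrin receptor epha4b (0.0495), the paraspeckle component pspc1 (0.0520), the translation initiation factor subunit eif2b1 (0.0571), the DNA repair gene rad51ap1 (0.0625) and the clamp loader subunit rfc4 (0.0637). The pair values of epha4b were -0.20 and -0.64, against -0.20 and -0.60 for pvalb3.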

How the data were processed

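Caudal fin RNA of trained and control larvae was compared on 6 arrays, with groups, pools and dyes taken from the labels. The authors used Agilent Feature Extraction 10.5.1.1, per the file headers and the submitters' notes on processing. For every spot, the files they deposited give median pixel intensity, median local background intensity and an intensity processed within the array. They also give log10 ratios (Cy5 over Cy3), which the deposited value table repeats and which served only as an alternative. No column of per-sample values was left unused (0).

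In R 4.3.3 with limma 3.58.1, local backgrounds over 10 median absolute deviations from the array median were set to that median. Intensities were corrected with normexp (offset 50, which compresses ratios of dim probes) and normalised by loess within each array, with control and flagged spots at weight 0. Signs were set so that log2 ratios read trained over control, and ratios were averaged per orientation and then over both, which gave 2 pair values. Pool levels are the same arrays after quantile normalisation of the mean intensity between arrays (Aquantile), which gives all arrays the same distribution of it. RefSeq accessions were matched to the RefSeq table of GRCz12tu, which named 25173 probes with 12900 symbols. A probe was kept (24105 were) if its trained or its control channel was well above background on all 6 arrays. A gene is its brightest kept probe. Genes were tested with limma against 0, with Benjamini-Hochberg adjustment at 0.05, and the fit was tested on simulated data. The labels do not say whether a pool number marks a shared clutch or day, so p-values and SEs rest on these pools only. Both are moderated, drawing the variance of a gene toward that of all genes (prior degrees of freedom 4.15). A moderated SE is therefore not the gene's own spread between pairs. For pvalb4 the SE was 0.35 and the SD between pairs 0.98, and for pvalb7 they were 0.17 and 0.03. The number of pool pairs, which is 2, limits the precision, and for dim probes intensity does as well.

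The members and gene lists were chosen with earlier results of these data known. Named genes are the 4 members with every probe, the 5 nearest genes by root mean square distance to each, up to 4 genes of each list with the smallest unadjusted p, atp2a1, ryr1b, casq1a and mylpfa, and the other parvalbumins tested. The gene tnnc2, also in that rule, was not analysed here. Further fast muscle genes (myhc4, tnni2b.1, pygma, pgam2, tpma and myl1) were named after their values were seen. Alternatives covered background, offset, normalisation, dim probes, probe choice, dyes, slides, repeats, pairing and each pool pair alone.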

Additional observations from a re-analysis of the deposited data

How the results depend on the processing

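Under the alternatives to background, offset, normalisation, filter, probe, dye, slide and pair, pvalb1 stayed above 0 (0.82 to 1.43 over 22 settings), and pvalb3 (-0.60 to -0.20) and pvalb4 (-1.92 to -0.53) stayed below 0 over 23 settings each. Not all of these settings could move a ratio of these genes. The ratios were unchanged with Aquantile, with either change of the dim probe filter, with the intensity trend and with the 4 pools fitted unpaired. The deposited value table nearly repeated the processed signals. The numbers of settings given here therefore overstate how many separate checks were made. The lowest pvalb4 and highest pvalb1 values are those of pool pair 3 alone, without replicate 2. The mean of pvalb2 ranged from -0.34 to 0.47 and was above 0 in 18 settings and below 0 in 4, while its pair 2 value was above 0 and its pair 3 value below 0 in each of the 20 settings that give both. The pair 3 value of pvalb2 was -0.07 with local backgrounds as deposited and -0.86 with median centring. The difference between pvalb1 and pvalb4 was 1.37 to 3.35, a range that does not include their other probes taken singly. The number of genes at least 1.5-fold higher in both pairs, 20 as reported, was 10 with local backgrounds as deposited, 36 with an offset of 10, 103 with processed signals and likewise 103 with the deposited value table, 132 with trained in Cy5 only and 38 with trained in Cy3 only. The number at least 1.5-fold lower in both, 31 as reported, was 48 with an offset of 10, 85 with processed signals, 85 with the deposited value table and 50 with trained in Cy5 only. The cause was not tested. Against 0 genes called, limma with an intensity trend and a robust prior called 7 (1 higher, 6 lower), and 9 (3 higher, 6 lower) were called from the 6 arrays with pool pairs as random blocks (block correlation 0.646). Fitting the 4 pools with no replicate block called 0 genes. A single pool pair allows no test. The median of the calmodulin and troponin C list was 0.11 with trained in Cy3 only. Signal over background limits pvalb5 and pvalb9, for which no ratio is given.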
